A study of Mus musculus with 6 samples.

Results

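Necroptosis and pyroptosis are lytic forms of cell death, and the 10 genes described here encode core parts of both and 2 associated proteins. They are Ripk1, Ripk3, Mlkl, Fadd and Casp8 of the necroptosis pathway, Pycard, Casp1 and Gsdmd of the inflammasome pathway, and Ppid and Hmgb1, and they were chosen by gene symbol. All 10 were found, each as 1 of the 21878 rows of every library, and all 10 passed the filter for testing.

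The cells were HSCs sorted from mouse BM as CD34-Flk2-Lineage-Sca1+c-Kit+ cells, with 3 libraries from control mice given vehicle and 3 from mice that received IGF1. The mice were wild type and age-matched, both groups were taken at day 1, and the IGF1 mice had been injected once under the skin with recombinant IGF1 at 200 µg/kg (insulin-like growth factor 1, a growth factor that signals through the IGF1 receptor). Age in weeks and sex of these mice are not given in the sources used here. The labels conflict, since 1 protocol field names irradiated mice, and the groups follow the titles and the treatment label. No source says that the libraries of a group came from separate mice, so the p-values measure the spread between these libraries, which may be technical.

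In necroptosis, a death receptor or other sensor brings the kinases RIPK1 and RIPK3 together, RIPK3 phosphorylates the pseudokinase MLKL, and MLKL permeabilizes the plasma membrane. The adaptor FADD recruits caspase-8, which can start apoptosis and also cleaves RIPK1 and RIPK3, so that this pair restrains necroptosis. In pyroptosis, an inflammasome sensor engages the adaptor ASC, encoded by Pycard, which recruits caspase-1. Caspase-1 then cleaves gasdermin D, encoded by Gsdmd, whose fragment forms membrane pores, and it matures the cytokines IL-1β and IL-18. HMGB1 is a nuclear chromatin protein that acts as a danger signal when lysed cells release it. Ppid encodes cyclophilin 40, a cochaperone of HSP90, whereas the mitochondrial cyclophilin D of the permeability transition pore is encoded by Ppif. Both kinds of death matter in BM because the lysis of HSCs removes stem cells and also exposes their neighbors to inflammatory signals.

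The values are FPKM, fragments per kilobase of gene, corrected for library depth, and the steps between low values gave a depth of about 11300000 to 16100000 reads per library. The 3 control libraries were not alike. On the first principal component, which held 93.2% of the variance of the tested genes, control replicates 1 and 3 scored -64.7 and -64.8, the IGF1 libraries scored 36.6 to 37.8, and control replicate 2 scored 17.8. Control replicate 2 was nearer to the IGF1 mean than to the mean of the other controls in 77.3% of the genes tested. Control replicates 1 and 3 differed by little more than counting noise (mean chi-squared per gene 1.52), as did the IGF1 libraries among themselves (1.69 to 1.89), against 229 to 231 between control replicate 2 and the other controls. The summed FPKM was also split this way, at 466619 and 466135 in control replicates 1 and 3, 635111 in control replicate 2 and 677826 to 680285 in the IGF1 libraries. The part of this split in the results below was not tested, and the members' results are given with and without control replicate 2.

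Markers of the sorted cells were measured in all libraries, with exceptions. Ly6a, which encodes Sca1, was at 219 to 615 FPKM and Procr at 11.5 to 18.7 FPKM, whereas the HSC markers Slamf1 and Hoxb5 were at 0.736 to 2.41 and 0.279 to 0.691 FPKM. Cd34 (230 to 640 FPKM) and Flt3, which encodes Flk2 (117 to 188 FPKM), were high although the sort selected against both proteins, and Mpo, a myeloid granule gene, was at 1613 to 1705 FPKM. Cd3e and Ly6g stayed at or under 0.206 FPKM, whereas Itgam, which encodes a chain of Mac-1, was at 4.46 to 7.96 FPKM. Of the neutrophil and monocyte list of 18 markers, 14 could be tested, and 4 were called lower in IGF1 HSCs (S100a8, S100a9, Ngp and Camp, which are genes of late granulocytes) and 0 higher. The early granule genes Elane, Prtn3 and Ctsg and the monocyte gene Ly6c2 lay in the other direction, at log2 fold changes of 2.03, 1.14, 1.16 and 2.33; none of these 4 passed the test with all libraries (adjusted p = 0.0726 to 0.125), and all 4 were called higher without control replicate 2. The summed level of that list was 3265 to 5828 FPKM in control and 5849 to 5890 FPKM in IGF1 libraries, with control replicate 2 holding the highest control sum. The lineage gate of the sort (CD3e, B220, Gr-1, Mac-1 and Ter-119) is meant to remove mature granulocytes, macrophages, lymphocytes and erythroid cells. The macrophage list had 0 of 5 tested genes called, and summed to 79.1 to 84.5 FPKM in control and 76.8 to 81.8 FPKM in IGF1 libraries. The B lineage list (0 of 7 tested genes called) summed to 121 to 499 FPKM in control and 474 to 494 FPKM in IGF1 libraries. The megakaryocyte list had 2 of 6 tested genes called higher, Gp1bb and Treml1. Its other tested genes were not called with all libraries, with Pf4 (log2 fold change 1.54) and Gp9 (0.86) higher and Itga2b (-0.48) and Gp5 (-0.30) lower. This list summed to 59.6 to 80.6 FPKM in control and 105 to 115 FPKM in IGF1 libraries. The part of these cells in the results below was not tested, and in sorted pools fewer cells of a type and less RNA per cell cannot be told apart.

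The test was limma on log2(FPKM + 1), where differences of weakly expressed genes come out too small, and genes were called at a fold change over 2 with a Benjamini-Hochberg adjusted p under 0.05 over the 10449 genes tested. In IGF1 versus control HSCs, 2 of the 10 members were called lower, Ppid and Hmgb1, and 0 higher. Over all genes tested, 4.63% were called lower and 1.98% higher, 6.61% in either direction. Under the adjusted p alone 4 members passed, all lower (Ppid, Casp1, Hmgb1 and Casp8), against 14.1% of all genes lower and 6.26% higher. The median log2 fold change was -0.55 over the 10 members and -0.18 over all genes tested, with 8 members lower and 2 higher. Scaling each library to its 75th percentile moved the median of all genes to 0.06 and the split of called genes from 207 higher and 484 lower to 391 higher and 208 lower. The members' median was then -0.28, and Ppid remained the 1 member called. Without control replicate 2, 4 members were called, Ppid, Hmgb1 and Ripk1 lower and Pycard higher, beside 20.6% of all genes lower and 12.3% higher; all 10 then passed the adjusted p alone, as did 88.5% of all genes.

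**Figure D1:**
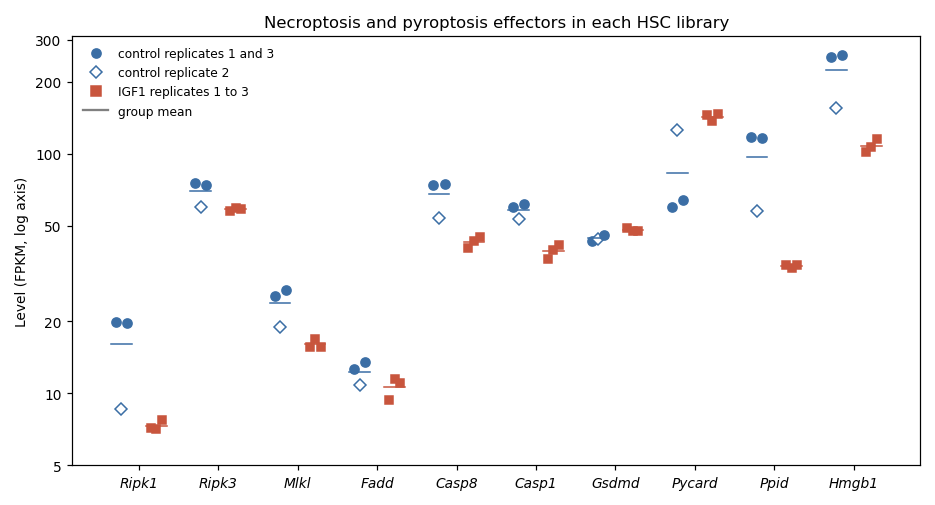
Level of each member in each library in FPKM on a log axis; blue points are control libraries, with replicate 2 as an open diamond, red squares are IGF1 libraries, and lines are group means. Control replicate 2 sits nearer to the IGF1 libraries in 8 of the 10 members, all but Casp1 and Gsdmd.

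The levels covered a wide range. In control HSCs the order by mean level was Hmgb1 (223 ± 58.8 FPKM, SD, n = 3), Ppid (97.2 ± 34.2), Pycard (83.3 ± 36.9), Ripk3 (70.1 ± 8.75), Casp8 (67.7 ± 11.8), Casp1 (58.4 ± 4.33), Gsdmd (44.4 ± 1.40), Mlkl (23.8 ± 4.37), Ripk1 (16.0 ± 6.46) and Fadd (12.3 ± 1.36). Hmgb1 stood above Ppid in every control library, and Casp1, Gsdmd and Mlkl were separated from each other, while each neighboring pair from Ppid down to Casp1 and from Mlkl down to Fadd overlapped in range. In IGF1 HSCs Pycard was first (143 ± 5.27 FPKM), ahead of Hmgb1 (108 ± 7.03), and Ppid was seventh (34.0 ± 0.429). Among neighbors in the IGF1 order, Casp8 and Casp1 alone overlapped, and the SDs were smaller than in control for all 10 members. Ripk3 and Casp8 were in the upper 5 in both groups, and Ripk1 and Fadd were among the 3 lowest.

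Upstream sequences are shown for the members with the largest differences in either direction among the 8 that have an entry in the promoter table used. They are the 250 bases before the outermost RefSeq transcript start (GRCm38.p6), written 5′ to 3′ on the strand of the gene, and capitals mark matches on either strand to 5 searched motifs. The motifs were the CCAAT box, the Sp1 site GGGCGG, the E-box CACGTG, the FOXO site GTAAACA and the STAT site TTCNNNGAA.
Hmgb1 (chr5:149053058-149053307, minus strand): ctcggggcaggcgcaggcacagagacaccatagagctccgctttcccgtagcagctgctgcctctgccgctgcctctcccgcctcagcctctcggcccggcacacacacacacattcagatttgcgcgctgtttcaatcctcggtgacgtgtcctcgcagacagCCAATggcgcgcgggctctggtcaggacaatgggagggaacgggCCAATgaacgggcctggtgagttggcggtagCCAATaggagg
Ripk1 (chr13:34002113-34002362, plus strand): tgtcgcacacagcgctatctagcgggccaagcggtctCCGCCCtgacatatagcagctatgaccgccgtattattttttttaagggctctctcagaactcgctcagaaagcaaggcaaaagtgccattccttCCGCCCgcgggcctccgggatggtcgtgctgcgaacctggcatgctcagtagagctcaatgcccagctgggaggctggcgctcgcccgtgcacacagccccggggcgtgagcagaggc
Pycard (chr7:127993868-127994117, minus strand): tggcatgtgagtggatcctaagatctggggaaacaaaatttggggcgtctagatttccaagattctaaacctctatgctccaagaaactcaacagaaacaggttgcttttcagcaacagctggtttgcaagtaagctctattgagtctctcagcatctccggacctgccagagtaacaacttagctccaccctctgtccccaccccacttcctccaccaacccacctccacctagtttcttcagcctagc

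The Hmgb1 window, which lies inside the longer GENCODE model of the gene, held CCAAT 3 times, a sequence that 33.8% of all 32851 windows of this length held at least once. The Ripk1 window held GGGCGG 2 times, both as CCGCCC, a sequence found in 32.7% of all windows. The Pycard window held 0 of the 5 motifs and had a GC content of 48.8%, against 63.6% for Hmgb1 and 60.8% for Ripk1. Over the 8 members with a window, CCAAT was found in 2 (Hmgb1 and Casp8), GGGCGG in 3 (Ripk1, Ripk3 and Fadd) and CACGTG in 2 (Ripk3 and Casp1), and the FOXO and STAT motifs in 0. Of all windows, 6.02% held CACGTG, 3.17% the FOXO motif and 7.02% the STAT motif. A match is a description of the letters only, and promoter activity was not measured.

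Within the necrosome, the kinase Ripk1 showed the largest difference. Ripk1 (ENSMUSG00000021408.15, GRCm38 chr13:34002363-34037147, plus strand) was at 19.8, 8.55 and 19.7 FPKM in control replicates 1, 2 and 3 and at 7.13, 7.08 and 7.76 FPKM in IGF1 replicates 1, 2 and 3. The groups did not overlap, but control replicate 2 lay 84.9% of the way from the other controls to the IGF1 mean. The log2 fold change was -0.95 (SE 0.32, 95% interval -1.73 to -0.16) and did not pass the test (adjusted p = 0.0675). Without control replicate 2 it was -1.32 and was called (adjusted p = 1.0e-08). Exons of Ripk1 overlap those of the pseudogene Gm17084 on the same strand and of Serpinb6a on the opposite strand in the reference annotation, and how the authors' counting treated shared or opposite-strand reads is not given in the sources used here.

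Ripk3, the kinase that activates MLKL (ENSMUSG00000022221.14, chr14:55784995-55788865, minus strand), was at 75.9, 60.0 and 74.3 FPKM in control and 57.5, 59.3 and 59.1 FPKM in IGF1 HSCs. The lowest control library, replicate 2, was within 1 FPKM of the highest IGF1 library. Its log2 fold change of -0.25 (SE 0.12) did not pass the test (adjusted p = 0.139), was -0.35 without control replicate 2, and was 0.02 after scaling to the 75th percentile, so its direction depended on the scaling. Relative to the median over all genes, its log2 difference was -0.07, near the middle of the genes tested.

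Mlkl, the executioner of necroptosis (ENSMUSG00000012519.14, minus strand of chromosome 8 at 111311797 to 111338177), was at 25.5, 18.8 and 27.1 FPKM in control and 15.6, 16.8 and 15.5 FPKM in IGF1 HSCs. All control libraries were above all IGF1 libraries, with control replicate 2 the nearest to them. The log2 fold change was -0.53 (SE 0.16, 95% interval -0.92 to -0.15), with an adjusted p of 0.0549, and was -0.68 without control replicate 2, under 2-fold in both fits. Between the genes of the necrosome, the ratio of Ripk3 to Ripk1 was 3.84, 7.02 and 3.77 in control and 8.06, 8.37 and 7.62 in IGF1 libraries. That ratio was higher in all IGF1 libraries (exact permutation p = 0.1, 2-sided, the smallest that 3 libraries against 3 allow). The ratio of Mlkl to Ripk3 was 0.335, 0.314 and 0.365 in control and 0.271, 0.283 and 0.263 in IGF1 libraries, with the same p.

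Of the pair that restrains necroptosis, Casp8 passed the adjusted p and Fadd did not, with overlapping 95% intervals. Casp8 (ENSMUSG00000026029.14, chr1:58795374-58847503, plus strand) was at 74.2, 54.1 and 74.8 FPKM in control and 40.6, 43.2 and 45.0 FPKM in IGF1 HSCs. The groups were separate, and the log2 fold change of -0.63 (SE 0.15, 95% interval -1.01 to -0.26) passed the adjusted p (0.0447) but not the fold threshold. It was -0.78 without control replicate 2, again under 2-fold. After 75th percentile scaling it was -0.36 (adjusted p = 0.0591), and after length and GC trends were removed it was -0.21 (adjusted p = 0.0895). In both of these fits Casp8 no longer passed the adjusted p. Fadd (ENSMUSG00000031077.7, chr7:144577318-144582463, minus strand) was at 12.6, 10.8 and 13.5 FPKM in control and 9.39, 11.4 and 11.1 FPKM in IGF1 HSCs. Its groups overlapped, since control replicate 2 lay below 2 IGF1 libraries, and its log2 fold change of -0.19 (95% interval -0.53 to 0.14) did not pass the test (adjusted p = 0.267) and turned to 0.06 after 75th percentile scaling. An antisense transcript, Faddos, overlaps Fadd. The ratio of Casp8 to Fadd was 5.90, 5.01 and 5.55 in control and 4.32, 3.79 and 4.06 in IGF1 libraries (exact permutation p = 0.1).

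Cflar, which encodes the caspase-8 regulator cFLIP, was at 4.27, 6.37 and 4.35 FPKM in control and 5.91, 5.62 and 5.67 FPKM in IGF1 HSCs, and did not pass the test (log2 fold change 0.19, adjusted p = 0.367). Control replicate 2 was the highest of the 6 libraries. The ratio of Casp8 to Cflar was accordingly 17.4, 8.499 and 17.2 in control and 6.86, 7.68 and 7.94 in IGF1 libraries, with control replicate 2 close to the IGF1 values.

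Of the inflammasome genes, the adaptor was higher and the caspase lower in the IGF1 libraries. Pycard (ENSMUSG00000030793.4, chr7:127989708-127993867, minus strand), whose upstream sequence is shown above, was at 59.9, 125.9 and 64.2 FPKM in control and 145, 137 and 147 FPKM in IGF1 HSCs. Control replicate 2 was at about the level of the IGF1 libraries without reaching them, 84.9% of the way from the other controls. The log2 fold change was 0.85 (SE 0.29, 95% interval 0.14 to 1.57) and did not pass the test (adjusted p = 0.0678). Without control replicate 2 it was 1.19 and was called higher (adjusted p = 2.3e-09). Relative to the median of all genes the difference was 1.032, and it stayed between 0.81 and 1.44 over the 20 alternatives. Exons of Gm45205 overlap those of Pycard on the opposite strand.

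Casp1 (ENSMUSG00000025888.5, chr9:5298517-5307265, plus strand) was at 60.2, 53.5 and 61.6 FPKM in control and 36.4, 39.7 and 41.7 FPKM in IGF1 HSCs. Here control replicate 2 was nearer to the other controls, 29.6% of the way to the IGF1 mean. The log2 fold change of -0.56 (SE 0.11, 95% interval -0.82 to -0.30) had the smallest adjusted p of the members (0.0367) but was under 2-fold, and it was -0.62 without control replicate 2. The ratio of Pycard to Casp1 was 0.994, 2.35 and 1.04 in control and 3.98, 3.45 and 3.51 in IGF1 libraries (exact permutation p = 0.1), with the adaptor transcript near the level of the caspase transcript in control replicates 1 and 3 and above it in the other 4 libraries.

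Gsdmd, the pore-forming substrate (ENSMUSG00000022575.5, chr15:75862327-75867408, plus strand), was at 43.1, 44.2 and 45.9 FPKM in control and 48.9, 47.8 and 47.7 FPKM in IGF1 HSCs. Control replicate 2 lay among the other controls, in contrast to the other 9 members. The groups did not overlap, but the log2 fold change was 0.11 (SE 0.09, 95% interval -0.10 to 0.33) and did not pass the test (adjusted p = 0.293), an interval within 2-fold in both directions. It was 0.11 without control replicate 2 and 0.38 after 75th percentile scaling (adjusted p = 0.0504). The ratio of Gsdmd to Casp1 was 0.715, 0.827 and 0.745 in control and 1.34, 1.205 and 1.14 in IGF1 libraries (exact permutation p = 0.1).

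**Figure D2:**
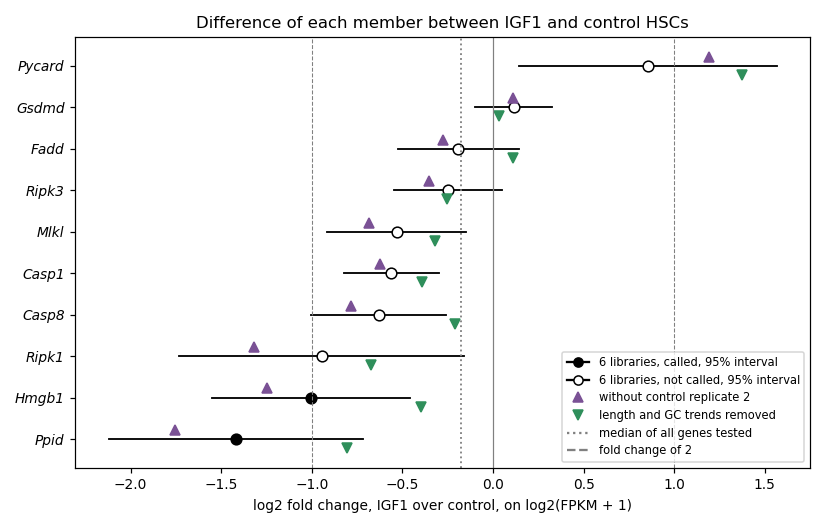
Log2 fold change of each member, IGF1 over control, on log2(FPKM + 1): circles with 95% intervals from the 6 libraries (filled where called), purple triangles without control replicate 2, green triangles after trends on transcript length and GC content were removed. Ppid (-1.42) and Hmgb1 (-1.005) are filled, Pycard (0.85) lies farthest to the right, and the dotted line is the median of all genes tested (-0.18).

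Ppid showed the largest difference of the 10 members on the deposited scale, whereas Pycard did after length and GC trends were removed (1.37). Ppid (ENSMUSG00000027804.13, chr3:79591342-79603650, plus strand) was at 117, 57.7 and 117 FPKM in control and fell to 34.2, 33.5 and 34.2 FPKM in IGF1 HSCs. Control replicate 2 was between the groups, 57.4% of the way to the IGF1 mean. The log2 fold change was -1.42 (SE 0.29, 95% interval -2.12 to -0.72, adjusted p = 0.0374), a 2.67-fold difference, and 2.62% of the genes tested had a lower value. It was -1.75 without control replicate 2 and -0.81, under 2-fold, after length and GC trends were removed. Ppif, the cyclophilin D gene, was at 105, 78.6 and 102 FPKM in control and 79.2, 74.7 and 79.2 FPKM in IGF1 HSCs, overlapped between groups and did not pass the test (log2 fold change -0.28, adjusted p = 0.144). The ratio of Ppid to Ppif was 1.12, 0.734 and 1.15 in control and 0.432, 0.448 and 0.432 in IGF1 libraries (exact permutation p = 0.1).

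Hmgb1 (ENSMUSG00000066551.12, chr5:149046702-149184489, minus strand), with its 3 CCAAT boxes shown above, was at 255, 155 and 259 FPKM in control and fell to 102, 107 and 116 FPKM in IGF1 HSCs. Again control replicate 2 was intermediate, at 58.1% of the way. The log2 fold change was -1.005 (SE 0.22, 95% interval -1.55 to -0.46, adjusted p = 0.0412), or 2.01-fold, just past the threshold of 2. It was -1.25 without control replicate 2, -0.73 after 75th percentile scaling and -0.40 after length and GC trends were removed, and in the last 2 of these it was not called. Hmgb2, the paralog that is high in dividing cells, was at 341, 498 and 335 FPKM in control and 537, 525 and 555 FPKM in IGF1 HSCs (log2 fold change 0.49, adjusted p = 0.0913). Hmgb1 was thus below Hmgb2 in every library, at a ratio of 0.749, 0.312 and 0.775 in control and 0.189, 0.203 and 0.208 in IGF1 libraries (exact permutation p = 0.1). RefSeq names 13 Hmgb1 pseudogenes. Exons of Hmgb1 also overlap those of the noncoding RNA gene Mm2pr on the same strand and of Uspl1 on the opposite strand. The Hmgb1 values are therefore uncertain where reads were shared.

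Across the members, 9 of the 10 had groups that did not overlap, all but Fadd. Of all genes tested, 59.4% did not overlap (37.4% lower and 21.9% higher in IGF1), so the share among the members is read against a high background. Leaving out any library other than control replicate 2 left 0 of 10449 genes called by limma, with 2982 to 3205 genes at an unadjusted p under 0.05. The members then had adjusted p values of at least 0.147, although the log2 fold changes of Ppid (-1.42 to -1.25) and Hmgb1 (-1.05 to -0.88) moved little. The plot of the members under every setting shows this.

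**Figure D3:**
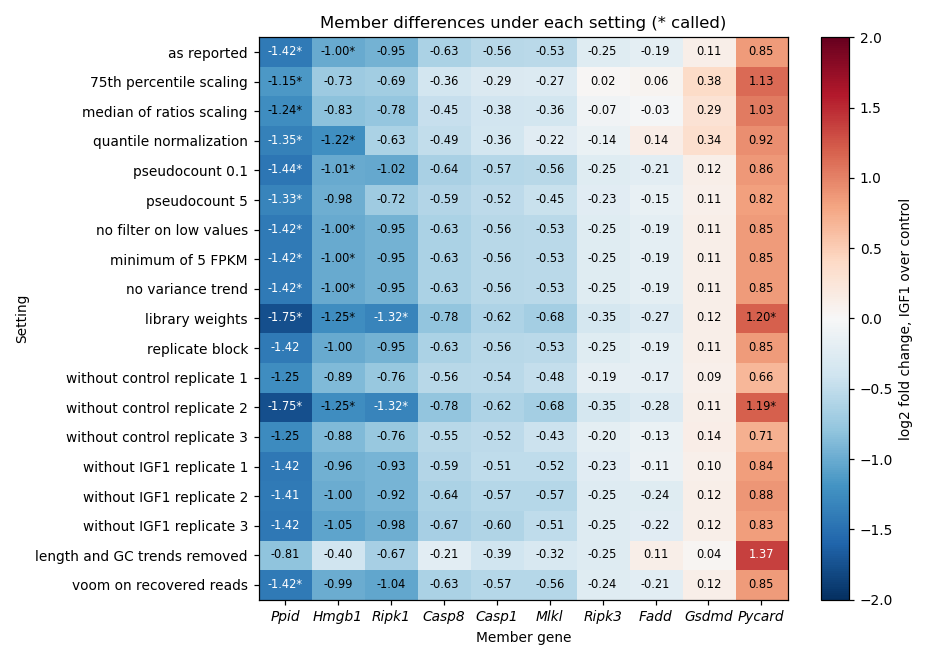
Log2 fold change of each member (columns) under each setting (rows), IGF1 over control, with red for higher and blue for lower and an asterisk where called. Ppid is called in 11 of the 18 alternative settings shown and Hmgb1 in 7, and without control replicate 2 or with library weights Ripk1 and Pycard are called as well.

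The rest of both pathways was followed in 5 lists of 140 further genes, of which 123 could be tested. In all, 5 were called lower (4.07%) and 1 higher (0.813%), beside 4.63% and 1.98% of all genes. Under the adjusted p alone 20 were lower (16.3%) and 3 higher (2.44%), beside 14.1% and 6.26%. The median log2 fold change over the 123 genes was -0.24, beside -0.18 over all genes tested, and without control replicate 2 the counts were 29 lower (23.6%) and 13 higher (10.6%), beside 20.6% and 12.3%. These shares were near those of all genes, and the 1 higher call, Ager, passed the filter through the IGF1 libraries alone. Among 48 tested genes of the necroptosis list (death receptors, ubiquitin ligases, interferon and Toll-like receptors, regulators), 1 was called lower, Ifngr1. Ifngr1, the ligand-binding chain of the interferon-γ receptor, was at 119, 55.0 and 117 FPKM in control and fell to 36.7, 39.5 and 34.8 FPKM in IGF1 HSCs (log2 fold change -1.29, SE 0.31, adjusted p = 0.0445). Control replicate 2 was the lowest control but above all IGF1 libraries.

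Upstream of the necrosome, Tnfrsf1a, the TNF receptor that assembles RIPK1, was at 34.1, 31.2 and 34.2 FPKM in control and 32.4, 33.1 and 32.7 FPKM in IGF1 HSCs (log2 fold change -0.02, adjusted p = 0.879). The IGF1 values lay inside the control range. Zbp1, a nucleic acid sensor that engages RIPK3, was at 6.15, 19.6 and 5.997 FPKM in control and 20.003, 18.3 and 19.8 FPKM in IGF1 HSCs. Control replicate 2 matched the IGF1 libraries, so the groups overlapped and Zbp1 did not pass the test (log2 fold change 1.01, adjusted p = 0.102), whereas without that library it was called higher at a log2 fold change of 1.52.

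Among 35 tested genes of the pyroptosis list, 2 were called lower and 0 higher. Gbp2, an interferon-induced GTPase that attacks pathogen membranes, was at 29.3, 17.2 and 28.7 FPKM in control and fell to 7.33, 7.95 and 7.87 FPKM in IGF1 HSCs (log2 fold change -1.54, SE 0.22, adjusted p = 0.0287). Il18bp, which encodes a secreted inhibitor of IL-18, was at 4.85, 3.005 and 4.82 FPKM in control and fell to 1.53, 1.48 and 1.43 FPKM (log2 fold change -1.05, adjusted p = 0.0307), and its exons overlap those of Numa1 on the opposite strand. Brcc3, a deubiquitinase of NLRP3, and Irgb10 (listed as Gm12250), an interferon-induced GTPase, passed the adjusted p but not the fold. Brcc3 was at 28.3, 26.7 and 26.9 FPKM in control and 14.9, 15.2 and 14.6 FPKM in IGF1 HSCs (log2 fold change -0.83, adjusted p = 0.0286). Irgb10 was at 27.1, 23.0 and 28.2 FPKM in control and 15.2, 14.9 and 14.8 FPKM in IGF1 HSCs (log2 fold change -0.75, adjusted p = 0.0287). In both of these genes control replicate 2 was nearer to the other controls than to the IGF1 libraries.

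The inflammasome sensor and cytokine transcripts were mostly low. Nlrp3, the sensor that engages ASC, was at 0.030 to 0.197 FPKM in control and 0.107 to 0.226 FPKM in IGF1 HSCs, and Il1b at 0.259 to 1.01 and 0.267 to 0.527 FPKM, so neither could be tested, and 12 of the 47 genes of that list were below the filter. Il18 was at 11.4, 17.3 and 12.2 FPKM in control and 10.6, 10.5 and 11.6 FPKM in IGF1 HSCs (log2 fold change -0.28, adjusted p = 0.217). Casp4, the sensor caspase for bacterial lipopolysaccharide, was at 19.7, 23.9 and 21.5 FPKM in control and 20.5, 18.7 and 20.9 FPKM in IGF1 HSCs (log2 fold change -0.11, adjusted p = 0.453). Gsdme (listed as Dfna5), the gasdermin cut by caspase-3, was at 4.65, 1.68 and 4.76 FPKM in control and 4.51, 5.04 and 4.36 FPKM in IGF1 HSCs (log2 fold change 0.34, adjusted p = 0.381). In Gsdme and Il18 control replicate 2 stood apart from all 5 other libraries.

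Of the membrane repair list, the ESCRT genes whose proteins remove MLKL and gasdermin pores, 15 could be tested and 1 was called lower. This was Chmp2b, an ESCRT-III subunit, at 43.1, 29.5 and 49.4 FPKM in control and 18.6, 17.9 and 17.8 FPKM in IGF1 HSCs (log2 fold change -1.09, adjusted p = 0.0354). The list had a median log2 fold change of -0.44. Among 11 tested HMGB and HMGB1 receptor genes, 1 was called lower, besides Ager as the 1 called higher, and the median was -0.49. Trem1, a myeloid receptor that amplifies inflammatory signals, was at 4.79, 3.32 and 3.88 FPKM in control and fell to 1.27, 1.25 and 1.37 FPKM (log2 fold change -1.11, adjusted p = 0.0286). Ager, which encodes the HMGB1 receptor RAGE, was at 0.260, 0.843 and 0.029 FPKM in control and 2.17, 1.35 and 1.69 FPKM in IGF1 HSCs (log2 fold change 1.02, adjusted p = 0.0429). All 3 controls were under the filter of 1 FPKM, so Ager was tested only because all 3 IGF1 libraries exceeded it, and its call supports nothing. The 14 cyclophilin genes had a median of -0.01 with 0 called by limma at the fold threshold, although 3 passed the adjusted p alone and 4 were called without control replicate 2.

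**Figure D4:**
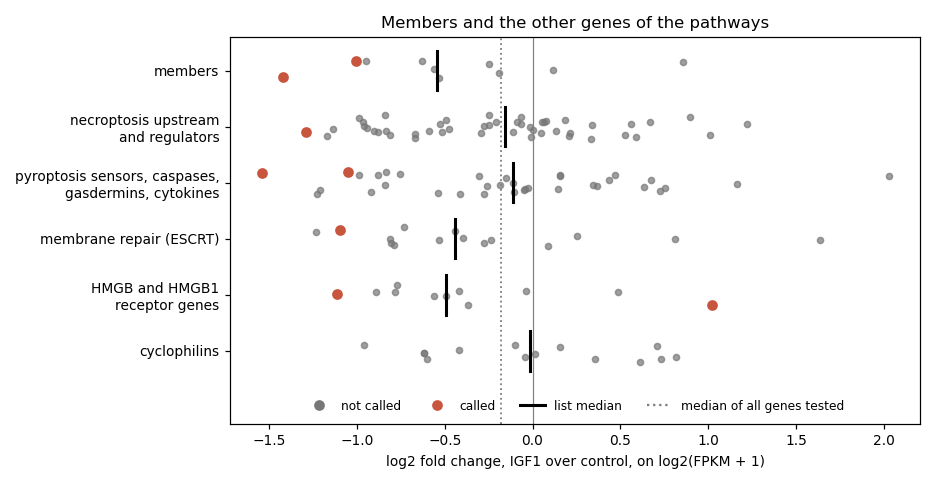
Log2 fold change, IGF1 over control, of the 10 members and of the tested genes of the 5 pathway lists; each point is a gene (red where called), black bars are list medians and the dotted line is the median of all genes tested. The red points are Ppid and Hmgb1 among the members and Ifngr1, Gbp2, Il18bp, Chmp2b, Trem1 and, on the right, Ager in the lists.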

How the data were processed

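RNA-seq of HSCs was used from 3 control and 3 IGF1 libraries, grouped by their titles and treatment label; dose and day come from the paper. RNA was extracted with a micro column kit, made into stranded mRNA libraries and sequenced on a NovaSeq instrument. The authors deposited 1 FPKM value per gene symbol and library. The paper names RSEM and the submitters' processing notes name fastp, HISAT2, StringTie and GRCm38/mm10, so which tool made the FPKM values was not settled, and the annotation is not given in the sources used here. FPKM is relative to all reads of a library, so a shift in a few abundant transcripts moves the values of the others.

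Low FPKM values rose in whole steps, which gave whole reads for 15640 of 15640 genes above 0 (tolerance 0.02 reads); totals of about 16000000, 11500000 and 16100000 reads (control) and 12400000, 11300000 and 12900000 (IGF1) are approximate in scale. The 10449 genes that reached 1 FPKM in 3 or more libraries were tested with limma 3.58.1 in R 4.3.3 (lmFit, eBayes with trend) on log2(FPKM + 1), with 20 alternatives. The procedure was tested on simulated data. Exact permutation tests were 2-sided. Coordinates and lengths are from GENCODE vM21 (GRCm38), promoters from RefSeq. Named genes are the 10 members, 10 further genes (Ppif, Hmgb2, Tnfrsf1a, Cflar, Zbp1, Nlrp3, Casp4, Gsdme, Il1b, Il18), every called gene of the pathway lists, and list genes with the smallest adjusted p up to 8 in all. Casp8/Fadd and similar ratios and the marker genes were chosen for description. The members and lists were chosen with earlier results of these data known, so the counts are descriptions and no list was tested. Counting error alone sets the precision that depth gives: the lowest member, Fadd, rested on 334 to 624 reads.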

Additional observations from a re-analysis of the deposited data

How the results depend on the processing

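In this order are given, for each setting, the called genes higher and lower over all genes, members lower, and other pathway genes higher and lower, beside 207, 484, 2, 1 and 5 as reported; members higher stayed at 0 except where stated. With 75th percentile scaling these were 391, 208, 1, 1 and 2, with median of ratios scaling 279, 278, 1, 1 and 2, and with quantile normalization 304, 319, 2, 0 and 4. A pseudocount of 0.1 gave 278, 701, 2, 0 and 6, and a pseudocount of 5 gave 66, 157, 1, 0 and 2. No filter gave 109, 265, 2, 1 and 4, a minimum of 5 FPKM gave 141, 356, 2, 0 and 3, and voom on recovered reads gave 382, 680, 1, 0 and 8. Removing length and GC trends gave 151, 164, 0, 2 and 1. With no fold threshold they were 654, 1476, 4, 3 and 20, and with a fold of 1.5 they were 481, 1165, 3, 2 and 18. Library weights, which gave control replicate 2 a weight of 0.0137, gave 1276, 2159, 3, 13 and 29, with 1 member higher. Leaving out single libraries gave 0 to 1281 genes higher and 0 to 2157 lower, 0 to 1 members higher and 0 to 3 lower, and 0 to 13 and 0 to 29 other pathway genes; every nonzero value came from leaving out control replicate 2, and the other 5 had 2982 to 3205 genes at an unadjusted p under 0.05.

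A replicate block called 0 genes in every count (lowest adjusted p by limma 0.0851, 4791 genes at an unadjusted p under 0.05). The labels give no pairing, so the numbers were not taken to pair the samples. Deviations of same-numbered libraries from their group means correlated at -0.057, -0.050 and 0.0057 across genes. Control replicate 2 dominates the deviations of the control group, so these correlations cannot show whether samples were paired.

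For single members, 171 of 200 fits kept direction and call, 18 lost a call, 7 gained one and 4 reversed. Ppid lost its call under the block (-1.42), under length and GC correction (-0.81) and without any library but control replicate 2 (-1.42 to -1.25). Hmgb1 lost its call there too (-1.005, -0.40, and -1.05 to -0.88), and also with 75th percentile (-0.73) and median of ratios scaling (-0.83), a pseudocount of 5 (-0.98) and voom (-0.99). Ripk1 gained a call without control replicate 2 or with weights (both -1.32), as did Pycard (1.191 and 1.197). Casp8 gained one with no fold threshold or 1.5 (-0.63), and Casp1 with none (-0.56). Ripk3 reversed with 75th percentile scaling (0.025), and Fadd with 75th percentile scaling (0.060), quantile normalization (0.14) and length and GC correction (0.11). The causes were not tested. Depth was not limiting for the members, but limits Ager, Nlrp3 and Il1b.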
